A study of Mus musculus with 24 samples.

Results

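The comparison described here asked which genes of the nucleus accumbens (NAc) differed in messenger RNA level between male mice that had been through subchronic variable stress (SCVS) and males that had not. It used 6 of the 24 libraries of the series, 3 of stressed males (SM) and 3 of unstressed males (NSM), and of 38293 genes in the count table it covered the 18593 with enough reads to be tested, 17795 of them with a gene symbol. The mice were C57BL/6J, a standard inbred strain, aged 9 weeks by the sample labels and 8 weeks by the methods of the study. Stressed males received 6 days of SCVS, in which 3 stressors (foot shock, tail suspension and restraint) alternate unpredictably, and their tissue was taken 24 h after the last stressor, whereas unstressed males stayed in group housing. Each library was made from 10 NAc punches of 5 mice, so that the replicates are pools, differences between single mice are not seen, and fewer cells of a type cannot be told apart from less RNA per cell. The 3 libraries of unstressed females (NSF) and the 3 of stressed females (SF), which were in estrus or proestrus, entered the same model and are used here only where the effects in the sexes are set side by side.

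The NAc is the ventral part of the striatum and a hub of the brain's reward circuitry. Nearly all of its neurons are inhibitory medium spiny neurons, which divide into a class with the D1 dopamine receptor and a class with the D2 receptor, and a few interneurons set their activity. Cells answer unfolded proteins with chaperones: in the cytosol heat shock factors switch on genes such as Hspa1a, Hspb1 and Bag3, and in the endoplasmic reticulum (ER) the unfolded protein response raises the chaperone Hspa5 (BiP) and its partners through the factors Xbp1 and Atf6. Immediate early genes such as Fos and Arc are transcribed within minutes of neuronal activity and fade within hours, and glucocorticoids released by stress act through the receptor Nr3c1 on targets such as Fkbp5 and Tsc22d3.

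ER chaperone genes held some of the smallest p values, and the promoters of several carried the letters of the ER stress element, a motif known from genes of the unfolded protein response. This element, CCAAT and CCACG with any 9 bases between them, was searched on both strands of the 250 bases upstream of the start of each gene in RefSeq (build GRCm38.p6). It was present in 7 of the 21 members of the list of ER chaperones and unfolded protein response genes that had a promoter in the table (33.3%), compared with 33 of all 27025 promoters (0.122%) and 18 of 11344 tested genes (0.159%). Because the motif is known from such genes, its high share in this list follows from the choice of genes and tests nothing about stress. The sequences of the 7 promoters around the element are given with the element in capitals, each on the strand of its gene, and CGTGG to ATTGG is the element read on the opposite strand.
Hspa5: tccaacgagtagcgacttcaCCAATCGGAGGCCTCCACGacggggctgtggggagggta
Pdia6: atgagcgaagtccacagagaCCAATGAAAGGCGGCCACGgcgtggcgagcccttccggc
Creld2: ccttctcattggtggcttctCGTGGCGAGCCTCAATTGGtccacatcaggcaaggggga
Dnajc3: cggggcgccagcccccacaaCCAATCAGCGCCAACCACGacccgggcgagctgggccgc
Calr: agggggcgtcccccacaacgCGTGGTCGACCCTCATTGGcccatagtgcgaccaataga
Canx: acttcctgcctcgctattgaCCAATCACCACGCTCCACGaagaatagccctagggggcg
Hsp90b1: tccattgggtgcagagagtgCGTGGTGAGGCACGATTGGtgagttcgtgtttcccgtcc

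These windows lie in GRCm38.p6 at chr2:34772005-34772063 (Hspa5, plus strand), chr12:17266471-17266529 (Pdia6, plus), chr15:88819500-88819558 (Creld2, plus), chr14:118937807-118937865 (Dnajc3, plus), chr8:84847055-84847113 (Calr, minus), chr11:50325780-50325838 (Canx, minus) and chr10:86705513-86705571 (Hsp90b1, minus). Between 46 bases (Hspa5) and 143 bases (Calr) separated the element shown from the start of the gene. The promoter of Hsp90b1 held 2 elements, of which only the one nearer the start is shown and measured. The mRNAs of Hspa5, Pdia6, Creld2 and Dnajc3 fell in stressed males, and those of Calr, Canx and Hsp90b1 did not pass the test, so that the element was present in 4 of the 8 fallen members with a promoter (50%) and also in members that passed no threshold. A strict heat shock element (GAA, TTC and GAA, or TTC, GAA and TTC, each 2 bases apart) was found in the same window of 1 of the 16 members of the list of cytosolic chaperones with a promoter in the table, Hspe1, and in 108 of all promoters (0.4%). Hspe1 passed no threshold (log2 fold change -0.20), and none of the 9 fallen members of that list with a promoter held the exact letters of the element. Near matches were not counted, such as GAA, TTC and GAT at this spacing in the promoter of Hspb1. The search therefore does not show that these promoters lack heat shock elements. These matches describe the letters of a short window and say nothing of which factor was bound.

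The calling rule of the study was used here too. A gene was called regulated by SCVS at an unadjusted limma p under 0.05 together with a fold change of at least 1.3 in either direction, and calls at an adjusted p (Benjamini-Hochberg, over all tested genes) under 0.05 are given beside. The words rose and fell are used only for genes that passed 1 of these rules. Values are counts per 1000000 reads (CPM) after TMM scaling, differences are log2 fold changes of SM against NSM with their standard error (SE), and changes are relative to a median of -0.01 over all genes. Of the tested genes 6.44% were regulated, 2.36% upwards and 4.08% downwards, and 3.32% had an adjusted p under 0.05, 1.48% higher and 1.84% lower in stressed males. Downward calls made up 63.4% of the regulated genes, against 76.2% with library size scaling, 52.3% with quantile normalization and 48.25% without SM1. The shares of tested genes are the background for every count that follows. The 3 SM libraries lay all above the 3 NSM libraries for 11.3% of genes and all below for 11.7%.

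Most of these changes were small. Of the regulated genes 977 changed by less than 2-fold and 221 by more, 75 of the latter upwards and 146 downwards, and their median absolute log2 fold change was 0.62. Many rested on few reads: the median of the mean reads over the male libraries was 70.2 in genes regulated upwards and 67.5 in those regulated downwards, against 558 over all tested genes. Below a mean of 50 reads 334 genes were regulated downwards and 183 upwards, and the adjusted p called 16 lower and 13 higher. At a mean of 500 to 5000 reads the adjusted p called 208 genes lower and 135 higher, and above 5000 reads 64 lower and 66 higher. At 50 to 500 reads it called 54 lower and 62 higher, so that the excess of lower genes at the adjusted p lay mainly between 500 and 5000 reads.

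**Figure D1:**
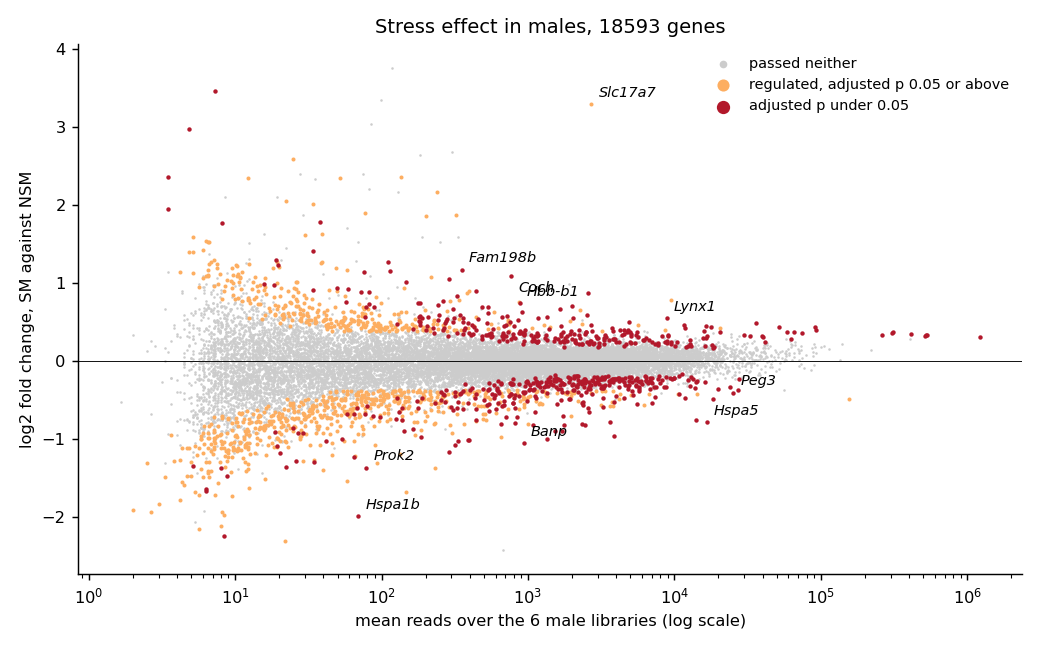
Each point is 1 of the 18593 tested genes, with the mean number of reads over the 6 male libraries on the log-scaled x axis and the log2 fold change of stressed against unstressed males on the y axis. Genes with an adjusted p under 0.05 (dark red) reach from below 10 to over 1000000 mean reads and mostly lie within 1 of the zero line, whereas genes regulated at the unadjusted p only (orange) crowd at low counts.

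Libraries held between 41076780 and 55929512 reads on genes, and replicate libraries differed by more than counting noise. Some libraries stood apart in ways that touch the results. Marker genes of cortical glutamatergic neurons, which do not occur in the NAc itself, summed to 51.3 to 70.7 CPM in NSM, 94.96 CPM in SM1, 195 CPM in SM2 and 263 CPM in SM3. NSM3 and SM3 lay apart from the other libraries of their groups on the second principal component, which held 22.8% of the variance of the 6 libraries, and Ttr, the main mRNA of the choroid plexus, had 66.1 CPM in NSM1 and 0.503 to 2.62 CPM in the others. For some of the lists that follow, values are also given with SM1 as the only stressed library or with libraries 1 and 2 of NSM and SM only. Both settings were chosen after the data were seen and kept all female libraries. A list without such values may differ in these settings too.

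Cytosolic chaperones and their helpers were lower in stressed males. All 21 members of the list had a log2 fold change below 0 (20 of them with DESeq2 size factors or quantile normalization), with a median of -0.22, and in 13 of them the 3 stressed libraries lay below the 3 unstressed ones. By the study's rule 6 of the 21 fell and none rose, and 10 fell at an adjusted p under 0.05. Chordc1, a cochaperone of HSP90 on chromosome 9 (ENSMUSG00000001774, 18096711 to 18118444 in NCBIM37), had the smallest adjusted p of all genes: 76.6, 83.8 and 80.3 CPM in NSM1, NSM2 and NSM3 and 52.2, 54.0 and 53.7 CPM in SM1, SM2 and SM3, a log2 fold change of -0.59 (SE 0.06, adjusted p = 0.000938). The 2 groups were far apart compared with the spread within them.

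Among the larger changes were those of stress-inducible members. Hspb1, a small heat shock protein, had 3.02, 4.02 and 4.28 CPM without stress and 2.09, 1.72 and 2.19 CPM after it (log2 fold change -0.90, SE 0.16, adjusted p = 0.0125). Bag3, a cochaperone of HSP70 that directs clients to autophagy, had 5.84, 6.38 and 5.56 CPM in NSM and 4.43, 4.51 and 4.497 CPM in SM (log2 fold change -0.40, SE 0.10, adjusted p = 0.0453). Hsf1, the factor that switches on this response, fell from 28.0, 30.1 and 37.3 CPM to 23.7, 20.7 and 26.9 CPM (log2 fold change -0.41, SE 0.10, adjusted p = 0.0463). In each of the 3 genes the groups did not overlap.

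The inducible HSP70 genes Hspa1b and Hspa1a had log2 fold changes of -1.995 and -1.30, but at means of 69.0 and 34.7 reads, and since the 2 genes are near copies their reads may be split arbitrarily between them. Members with an adjusted p under 0.05 but a fold below 1.3 were Dnajb1 (-0.37) and Dnaja1 (-0.22), which are HSP40 partners of HSP70, the HSP90 activator Ahsa1 (-0.22) and the scaffold Stip1 (-0.24). The abundant constitutive members Hspa8, Hsp90aa1 and Hsp90ab1 had log2 fold changes of -0.18, -0.10 and -0.09, none past a threshold. With SM1 as the only stressed library 5 members of the list of cytosolic chaperones fell, of which none had an adjusted p under 0.05 by limma (2 of 18593 genes had one in that fit), and with the level of cortical markers as a covariate 6 fell, 2 of them at the adjusted p. In females the median of the list was 0.04.

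In the list of ER chaperones and unfolded protein response genes 7 of 25 members fell by the study's rule and 10 at an adjusted p under 0.05, and none rose. Hspa5, the HSP70 of the ER (ENSMUSG00000026864, chromosome 2, 34627490 to 34632051 in NCBIM37), had 434, 463 and 391.5 CPM in NSM and 262, 252 and 230 CPM in SM. Its log2 fold change was -0.79 (SE 0.08, adjusted p = 0.00112), the smallest p among the genes with over 100 CPM, and the highest stressed library stood far below the lowest unstressed one. Sdf2l1, an ER protein that works with HSP40 partners of Hspa5, fell from 8.79, 10.3 and 7.99 CPM to 4.48, 4.32 and 4.36 CPM (log2 fold change -1.03, SE 0.14, adjusted p = 0.00372).

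Of the disulfide isomerases, which form and reshuffle disulfide bonds in the ER, Pdia4 and Pdia6 fell and Pdia3 (-0.13, adjusted p = 0.221) passed no threshold. Pdia4 had 67.1, 69.8 and 60.02 CPM without stress and 40.5, 44.9 and 38.9 CPM after it (log2 fold change -0.66, SE 0.08, adjusted p = 0.00372), and Pdia6 had 125, 122 and 111 CPM against 93.8, 92.0 and 87.7 CPM (-0.39, SE 0.05, adjusted p = 0.00372). Xbp1, the transcription factor of the response, fell from 97.0, 95.4 and 87.0 CPM to 68.3, 62.6 and 62.8 CPM (log2 fold change -0.53, SE 0.07, adjusted p = 0.00372). Further members that fell were Manf (-0.49), a secreted trophic protein, Creld2 (-0.45), Hyou1 (-0.26), Dnajc3 (-0.23) and Herpud1 (-0.22).

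Members that are known as targets of Atf4, namely Asns, Trib3 and Ddit3, passed no threshold, with log2 fold changes of 0.09, -0.31 and -0.05, and neither did Atf4 itself (0.04) or Atf6 (0.18). Between 5 and 8 members of the list of ER chaperones and unfolded protein response genes fell in every alternative fit and none rose in any. The lowest number, 5, was found with SM1 as the only stressed library, where none had an adjusted p under 0.05. With the cortical covariate 6 fell, and 1 had an adjusted p under 0.05. The female median was -0.05, and Hspa5 had a log2 fold change of -0.18 there (SE 0.08).

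Most listed immediate early genes were lower in stressed males 24 h after the last stressor. Of 17 tested members 16 had a log2 fold change below 0, with a median of -0.53, 8 fell by the study's rule and none rose, and 4 had an adjusted p under 0.05. Nr4a2, also an immediate early gene, was listed under deep cortex instead and rose by the unadjusted rule (2.16, adjusted p = 0.206). The absence of rises depends on that placement, and the lists were chosen with earlier results known. Nr4a3, an orphan nuclear receptor (ENSMUSG00000028341, chromosome 4, 48058025 to 48099319), had 36.0, 43.5 and 43.0 CPM in NSM and 22.7, 23.1 and 19.4 CPM in SM (log2 fold change -0.91, SE 0.14, adjusted p = 0.00612). Fosl2, a partner of JUN proteins in the AP-1 complex, had 55.0, 70.4 and 66.1 CPM against 36.4, 36.0 and 35.0 CPM (-0.83, SE 0.15, adjusted p = 0.0119).

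Fosb, whose stable splice product builds up in the NAc under repeated stimulation, fell from 19.7, 22.2 and 22.6 CPM to 13.8, 13.1 and 12.1 CPM (log2 fold change -0.73, SE 0.12, adjusted p = 0.0101). Egr2 fell from 9.496, 12.4 and 11.9 CPM to 7.02, 7.44 and 5.45 CPM (-0.76, SE 0.19, adjusted p = 0.0482). In these 4 genes the groups did not overlap. Fos (log2 fold change -0.97, adjusted p = 0.116), Nr4a1 (-0.58, adjusted p = 0.122), Btg2 (-0.44, adjusted p = 0.187) and Arc (-0.53, adjusted p = 0.22) fell by the unadjusted rule alone.

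Among the unstressed libraries NSM1 was the lowest for most of these genes, with 15.7 CPM of Fos against 19.1 and 18.03 CPM and 70.5 CPM of Arc against 110 and 95.2 CPM. Without NSM1 the number of fallen immediate early genes was 11, without NSM2 or without SM3 it was 5, with SM1 as the only stressed library 3, and with libraries 1 and 2 only 4, and none rose in any fit. In females 24 h after stress the list had a median of -0.23.

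**Figure D2:**
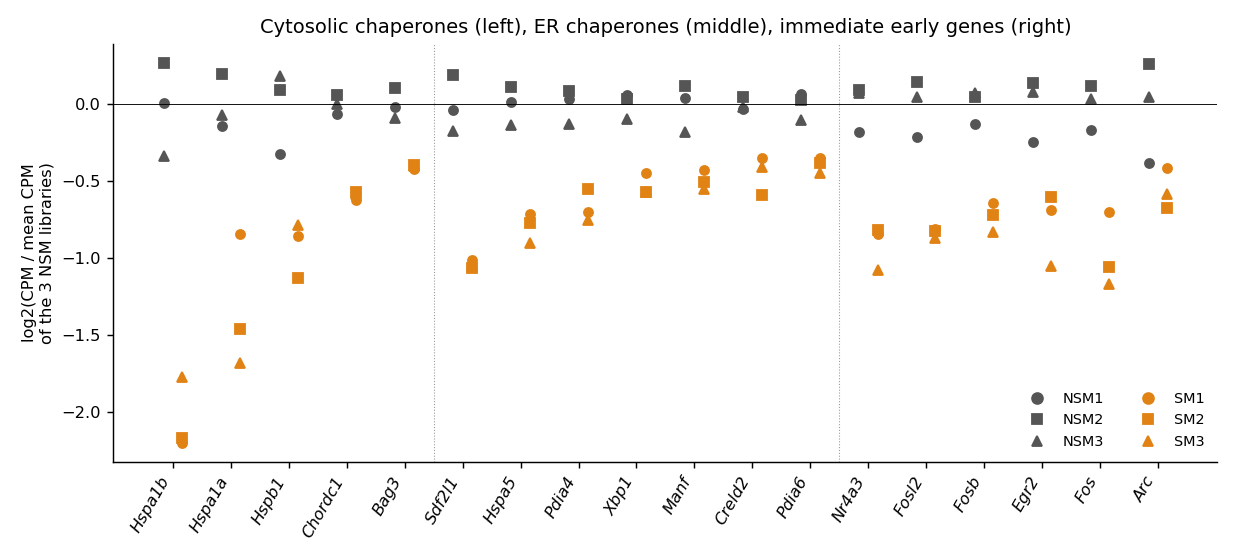
For 5 cytosolic chaperone genes (left), 7 ER genes (middle) and 6 immediate early genes (right), each symbol is 1 library and the y axis is the log2 of its CPM over the mean CPM of the 3 unstressed male libraries. In all 18 genes the 3 stressed libraries (orange) lie below the 3 unstressed ones (grey), and Hspa1b and Hspa1a reach the lowest values.

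Genes that glucocorticoids are known to induce were mixed. Of 20 members, receptors included, 5 fell by the study's rule, 3 at an adjusted p under 0.05, and none rose. Tsc22d3 (GILZ), on chromosome X, fell from 49.8, 53.9 and 50.4 CPM to 41.6, 36.1 and 39.2 CPM (log2 fold change -0.40, SE 0.07, adjusted p = 0.0134). Pdk4, an inhibitory kinase of pyruvate dehydrogenase, fell from 16.9, 17.0 and 15.4 CPM to 10.9, 12.3 and 11.3 CPM (-0.51, SE 0.07, adjusted p = 0.00372), and Zbtb16, a transcriptional repressor, from 10.7, 9.35 and 11.4 CPM to 4.35, 5.40 and 5.76 CPM (-1.02, SE 0.17, adjusted p = 0.0101).

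Other targets and the receptor itself did not pass a threshold. Fkbp5 had 56.1, 54.7 and 49.0 CPM in NSM and 56.4, 53.8 and 55.4 CPM in SM (log2 fold change 0.05, SE 0.08), Sgk1 a log2 fold change of 0.26 (adjusted p = 0.098), and the receptor gene Nr3c1 one of 0.02 (SE 0.05). Plin4 (-0.77, adjusted p = 0.111) and Lcn2 (-2.31, adjusted p = 0.19) fell by the unadjusted rule, Lcn2 at 0.106, 0.935 and 1.34 CPM in NSM and 0.0755 to 0.111 CPM in SM, so that NSM1 lay among the stressed libraries. The median of the list was -0.01, as for all genes, and without NSM2 or without SM2 3 of its members fell.

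In the circadian clock list 4 of 17 genes passed a threshold. Arntl (Bmal1), of the activating arm, fell from 41.1, 40.6 and 37.8 CPM to 29.1, 30.6 and 30.9 CPM (log2 fold change -0.40, SE 0.08, adjusted p = 0.0183), and so did the repressors Nfil3 (-0.43, adjusted p = 0.0428) and, by the adjusted p only, Per2 (-0.37, adjusted p = 0.043). Gm129, a repressor also known as Chrono, rose from 13.6, 11.9 and 12.0 CPM to 17.7, 16.5 and 17.4 CPM (0.46, SE 0.08, adjusted p = 0.0103). Dbp and Nr1d1, whose daily rhythm is opposite in phase to that of Arntl, had log2 fold changes of 0.18 and 0.11 and passed no threshold. The sources used here do not give the hour at which each pool was collected.

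Markers of the NAc's principal neurons were present at high levels and shifted little. Ppp1r1b (DARPP-32), which defines medium spiny neurons, had 815, 830 and 761 CPM in NSM and 949, 915 and 855 CPM in SM (log2 fold change 0.18, SE 0.08, adjusted p = 0.223). Of the 16 medium spiny neuron markers 15 had a log2 fold change above 0, with a median of 0.15, but none was regulated and none passed the adjusted p by limma or by edgeR, 5 having an unadjusted p under 0.05 and 3 an adjusted p under 0.05 by DESeq2. The summed level of the list of medium spiny neurons was 12240 to 13540 CPM in NSM and 13400 to 14970 CPM in SM, which overlap.

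The dopamine receptor gene Drd1a had 317, 330 and 278 CPM without stress and 364, 383 and 321 CPM after it (log2 fold change 0.21, SE 0.09, adjusted p = 0.195), and Drd2 had 148, 143 and 130 CPM against 152, 159 and 141 CPM (0.10, SE 0.08, adjusted p = 0.463). In both the groups overlapped. Among 8 markers of each class the only gene to pass a threshold was Plxdc1 of the D2 class, which rose from 14.8, 13.9 and 14.2 CPM to 18.7, 20.9 and 18.7 CPM (0.44, SE 0.07, adjusted p = 0.00612). Penk (0.14) and Pdyn (-0.15), the opioid precursors of D2 and D1 neurons, passed no threshold.

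Markers of the ventral striatum and islands of Calleja were all lower. None of the 8 had a log2 fold change above 0, the median was -0.38, 4 fell by the study's rule and 3 at an adjusted p under 0.05. Cartpt, the precursor of the CART peptide (ENSMUSG00000021647, chromosome 13, 100668439 to 100670638), fell from 54.6, 67.2 and 60.99 CPM to 37.6, 31.3 and 35.2 CPM (log2 fold change -0.81, SE 0.12, adjusted p = 0.00531). Nts, the precursor of neurotensin, had 38.2, 49.9 and 46.5 CPM in NSM and 37.1, 15.99 and 23.9 CPM in SM (-0.90, SE 0.21, adjusted p = 0.0397), where SM1 lay just below the lowest unstressed library. Peg10 (-0.76, adjusted p = 0.036) and Dlk1 (-0.43, adjusted p = 0.0632) also fell, and Drd3, the receptor of the islands, had a log2 fold change of -0.31 (adjusted p = 0.0816).

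Among the stressed libraries SM1 was the nearest to NSM both for this list, which was lower, and for the cortical markers, which were higher. SM2 was the furthest from NSM for this list and SM3 for the cortical markers. Relative to the mean of NSM, the members of the list of ventral striatum and islands of Calleja averaged -0.25 in SM1, -0.63 in SM2 and -0.59 in SM3 on the log2 scale, and those of cortical glutamatergic neurons 0.95, 1.96 and 2.57. With SM1 as the only stressed library 1 marker of the ventral striatum fell, with libraries 1 and 2 only 3, and with the cortical covariate 2. The part of the cortical markers in this result was not tested beyond these fits.

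Cortical marker genes had the largest shift of any list. The median log2 fold change of the 12 markers of cortical glutamatergic neurons was 2.49, and in 8 of them all stressed libraries lay above all unstressed ones, yet 2 were regulated by the study's rule and none had an adjusted p under 0.05 by limma, with 3 at an unadjusted p under 0.05. Slc17a7 (VGLUT1), the vesicular glutamate transporter of cortical neurons, had 12.0, 4.02 and 16.4 CPM in NSM and 39.5, 119 and 162 CPM in SM (log2 fold change 3.29, SE 1.10, adjusted p = 0.115). Its level differed widely among the stressed libraries themselves, with SM1 nearest to the unstressed ones. Neurod6, a transcription factor gene of cortical projection neurons, had 0.371, 0.102 and 0.671 CPM in NSM and 1.64, 5.93 and 6.80 CPM in SM.

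Calls in this list of cortical glutamatergic neurons depended on the tool, since edgeR and DESeq2 each called 9 members regulated, 1 and 6 of them at an adjusted p under 0.05. Without SM1 limma called 8 members regulated, and with SM1 as the only stressed library it called none. Markers of the deep cortex, claustrum and endopiriform nucleus, which border the striatum, had a median of 0.95, and Cplx3, Ctgf and Nr4a2 rose by the unadjusted rule. In stressed females the median of the cortical list was -0.58. Because whole punches were sequenced, the share of such border tissue in a pool and a change in its cells cannot be told apart.

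**Figure D3:**
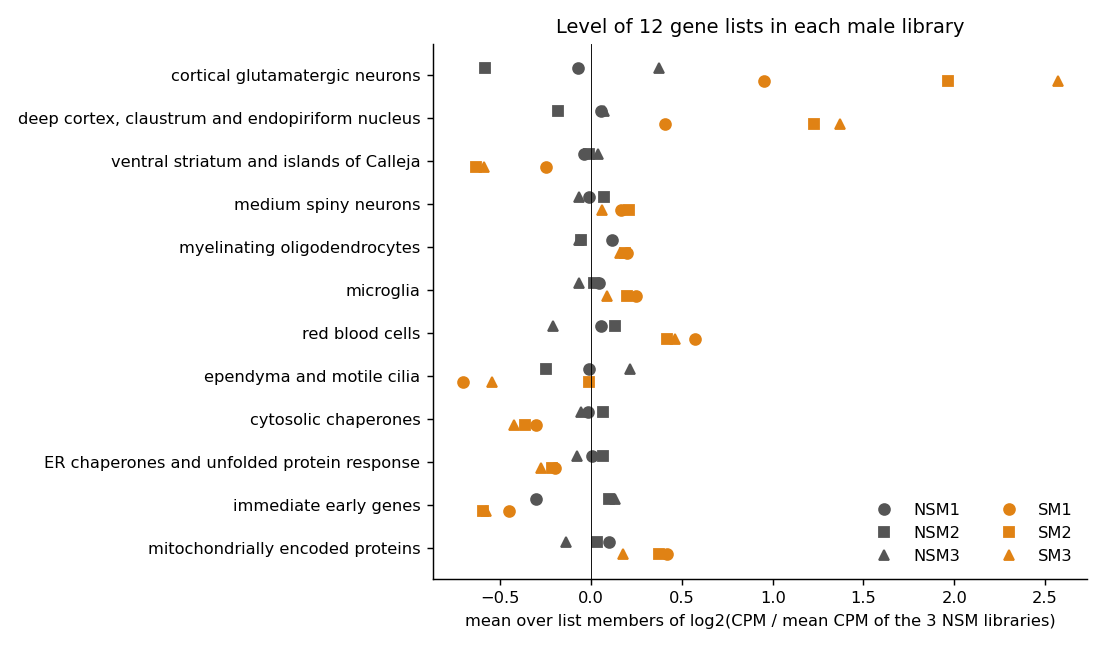
Rows are 12 gene lists and each symbol is 1 male library, placed on the x axis at the mean over the list's members of the log2 of its CPM over the mean CPM of the 3 unstressed libraries. Cortical markers spread from 0.95 in SM1 to 2.57 in SM3, whereas the 3 stressed libraries lie close together, below the unstressed ones, for cytosolic chaperones, ER chaperones and immediate early genes.

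Interneuron markers gave single calls. Pvalb, the calcium-binding protein of fast-spiking interneurons, rose from 2.26, 2.46 and 1.54 CPM to 4.35, 3.08 and 4.52 CPM (log2 fold change 0.93, SE 0.32, adjusted p = 0.128), and Calb2 (-0.57, adjusted p = 0.153) and Chodl (-0.45, adjusted p = 0.0754) fell, while 9 other markers of GABA interneurons passed no threshold. None of the 5 tested markers of cholinergic interneurons was regulated by limma, edgeR or DESeq2, and none had an unadjusted limma p under 0.05. Markers of neighbouring regions were lower in part, with Tac2 (-0.59, adjusted p = 0.0273) and Crh among 7 hypothalamic peptide genes and Tcf7l2 (-0.53, adjusted p = 0.0484) and Gbx2 among 8 markers of the thalamus, septum and pallidum. Of the 7 hypothalamic genes 3 had a log2 fold change above 0, and of the 8 others 1, Slc17a6. Slc17a6 (0.58, adjusted p = 0.475) passed no threshold, but all its SM libraries lay above all its NSM libraries.

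Myelin genes of oligodendrocytes were slightly higher. All 14 (13 with library size scaling) had a log2 fold change above 0, with a median of 0.17, and summed to 5178 to 5791 CPM in NSM and 6210 to 6245 CPM in SM. Mobp rose from 819, 711 and 688 CPM to 907, 930 and 916 CPM (0.32, SE 0.07, adjusted p = 0.0238) and Mog from 64.2, 52.5 and 53.4 CPM to 70.5, 70.0 and 66.7 CPM (0.29, SE 0.07, adjusted p = 0.0458), neither by as much as 1.3-fold. Without NSM1, whose levels were the highest of the unstressed pools, 5 myelinating oligodendrocytes markers had an adjusted p under 0.05, and none had one without any of NSM2, NSM3, SM1 or SM2. Oligodendrocyte precursor markers gave no call by limma or edgeR, with 2 of 8 at an unadjusted p under 0.05 and 1 lower at the adjusted p of DESeq2.

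Microglial genes were higher as well, with a median of 0.17 and 14 of 16 above 0 (13 with library size scaling). P2ry12, the purinergic receptor of resting microglia, rose from 37.1, 37.1 and 33.0 CPM to 49.5, 50.01 and 41.1 CPM (log2 fold change 0.39, SE 0.08, adjusted p = 0.0245). Cx3cr1 (0.29, adjusted p = 0.0405) and Gpr34 (0.31, adjusted p = 0.0481) rose by less than 1.3-fold and Aif1 (0.38, adjusted p = 0.147) by the unadjusted rule alone. No microglia marker had an adjusted p under 0.05 without any of NSM2, NSM3, SM1 or SM2. Of 13 astrocyte markers 1 passed: Gjb6 (connexin 30), a gap junction protein, fell from 30.1, 27.3 and 26.5 CPM to 18.7, 16.8 and 17.9 CPM (log2 fold change -0.66, SE 0.09, adjusted p = 0.00372).

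Most red blood cell genes rose. Of 7 tested members 5 were regulated upwards and none downwards, and the same 5 had an adjusted p under 0.05. The other two, Epb4.2 (log2 fold change -0.49, SE 0.33) and Bpgm (0.07, SE 0.06), passed no threshold. Hbb-b1, a beta globin (ENSMUSG00000052305, chromosome 7, 110975048 to 110976610), had 13.9, 15.8 and 12.4 CPM in NSM and 25.7, 22.03 and 22.8 CPM in SM (log2 fold change 0.74, SE 0.10, adjusted p = 0.00373). Alas2, the red cell enzyme of heme synthesis, rose from 1.16, 1.46 and 1.10 CPM to 2.52, 2.30 and 2.04 CPM (0.88, SE 0.16, adjusted p = 0.0146). Hbb-b2, Hba-a1 and Hba-a2, near copies of other globin genes with which they can share reads, had log2 fold changes of 0.75, 0.72 and 0.74. In every alternative fit the same number, 5, of red blood cells genes was regulated upwards, and the female median was -0.10.

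Cd4, which microglia and some neurons express besides T cells, rose from 45.9, 42.8 and 38.5 CPM to 63.5, 69.0 and 58.9 CPM (log2 fold change 0.59, SE 0.10, adjusted p = 0.0108), and Ighm, an immunoglobulin chain, from 5.77, 5.04 and 4.32 CPM to 7.50, 7.34 and 9.22 CPM (0.67, SE 0.16, adjusted p = 0.0361). The other 5 tested lymphocyte markers passed no threshold. Endothelial cells gave Slco1a4, a transporter of the blood-brain barrier, at 0.28 (adjusted p = 0.0374) and Cldn5, a tight junction protein, at -0.45 (adjusted p = 0.176), and mural cells only Tagln at 0.39 (adjusted p = 0.186). All 10 markers of ependyma and motile cilia had negative log2 fold changes, with a median of -0.46, but none was regulated by limma, none had an unadjusted p under 0.05 and edgeR and DESeq2 each called 1. Their summed level was 27.3 to 36.9 CPM in NSM and 20.6, 29.6 and 22.5 CPM in SM, which overlap, and 5 of the 10 fell by the study's rule without SM2. The choroid plexus list gave falls of Prlr (-1.31, adjusted p = 0.107) and Otx2 (-0.57, adjusted p = 0.137), both by the unadjusted rule, and meningeal fibroblasts gave Slc22a6 (0.74, adjusted p = 0.17) and Col1a2. The 11 markers of neuroblasts and dividing cells were also all below 0 (median -0.21), with Dcx at -0.32 (adjusted p = 0.09), 3 of them at an unadjusted p under 0.05.

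Among 27 neuropeptide precursors 5 fell and 3 rose by the study's rule, and the 4 with an adjusted p under 0.05, Cartpt, Prok2, Tac2 and Nts, all fell. Prok2, a secreted signal of circadian and limbic circuits, had a log2 fold change of -1.37. The risers were Edn3 (log2 fold change 0.47, adjusted p = 0.0697) and 2 peptides that cortical neurons make in quantity, Adcyap1 (2.01, adjusted p = 0.183) and Cck (1.87, adjusted p = 0.23). Cck had 2.47, 2.05 and 4.36 CPM without stress and 5.66, 12.3 and 14.8 CPM after it, the same order of libraries as the cortical markers. Without SM3 none of the neuropeptides was regulated upwards and 5 downwards.

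Of 48 receptors of neuropeptides 6 fell and 2 rose, 1 of the latter, Npy6r, at a mean of 3.5 reads. The mu opioid receptor gene Oprm1 fell from 14.5, 14.6 and 15.6 CPM to 10.9, 11.4 and 11.4 CPM (log2 fold change -0.41, SE 0.08, adjusted p = 0.0211), and the Y1 receptor of neuropeptide Y, Npy1r, from 17.5, 17.1 and 19.2 CPM to 15.6, 11.6 and 13.4 CPM (-0.42, SE 0.09, adjusted p = 0.023). Groups did not overlap in either gene. Rxfp3, Brs3, Sstr5 and Calcr fell by the unadjusted rule, between -0.60 and -0.78. Without SM2 the number of fallen neuropeptide receptors was 2 and without NSM2 it was 9.

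Receptors for the classical transmitters were called in both directions. Over all tested genes 2.36% rose and 4.08% fell by the study's rule. Of 18 GABA receptor genes 2 fell by that rule, and of 15 acetylcholine receptor genes 1 rose and 1 fell. Of 26 glutamate receptor genes only Grin3b rose, at a mean of 18.5 reads, and of 28 receptors for dopamine, serotonin and adrenergic ligands Htr4 (-0.62, adjusted p = 0.0843), Adra2b (-0.50) and Htr5b (-0.83) fell by the unadjusted rule. Htr4 had 17.1, 18.8 and 17.8 CPM in NSM and 18.1, 8.29 and 10.9 CPM in SM, with SM1 among the unstressed libraries. Gabra2, the alpha2 subunit of the GABA-A receptor, fell from 57.9, 63.2 and 60.3 CPM to 50.5, 49.5 and 46.3 CPM (log2 fold change -0.31, SE 0.05, adjusted p = 0.0088), less than 1.3-fold, and the rarer subunit genes Gabrq (-1.38) and Gabre (-0.74) fell by the unadjusted rule. Chrm5, a muscarinic receptor, fell from 4.91, 4.02 and 3.94 CPM to 2.82, 2.25 and 2.02 CPM (-0.88, SE 0.17, adjusted p = 0.017), and Chrna4, a nicotinic subunit, rose (0.52, adjusted p = 0.0879). Lynx1, which binds nicotinic receptors and restrains them, rose from 164, 154 and 139 CPM to 213, 232 and 221 CPM (0.55, SE 0.07, adjusted p = 0.00372).

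In the channels that set the firing of neurons rises and falls were both found. Of 84 potassium channel genes 5 rose and 4 fell by the study's rule, and among those with an adjusted p under 0.05 the calcium-activated channels Kcnn2 (-0.40, adjusted p = 0.0198) and Kcnn3 (-0.37, adjusted p = 0.0405) fell, as did Kcnd3 (-0.24), a channel of transient A-type currents, while Kcnh7 (0.56, adjusted p = 0.0418), Kcnk2 (0.30, adjusted p = 0.0451) and the accessory subunit gene Kcnab2 (0.21) rose. Scn4b, a sodium channel subunit abundant in striatal neurons, rose from 950, 974 and 844 CPM to 1274, 1316 and 1145 CPM (log2 fold change 0.43, SE 0.10, adjusted p = 0.036).

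The synaptic machinery shifted upwards in a few members. Of 31 genes of synaptic vesicle release 25 had a log2 fold change above 0, with a median of 0.07, and 3 had an adjusted p under 0.05, all higher. Syt2, a fast calcium sensor of release, rose from 28.9, 27.3 and 25.8 CPM to 45.3, 43.4 and 40.9 CPM (0.66, SE 0.12, adjusted p = 0.0157), Sv2b from 217, 222 and 198 CPM to 260, 325 and 273 CPM (0.43, SE 0.11, adjusted p = 0.049), and the SNARE protein gene Snap25 had 0.27 (adjusted p = 0.0391). Among 69 kinesins and myosins 5 had an adjusted p under 0.05. Kif5a, a kinesin of axonal transport, rose from 1728, 1622 and 1574 CPM to 2096, 2280 and 2279 CPM (0.43, SE 0.08, adjusted p = 0.0148), its relative Kif5c (0.25) and Myo5b (0.24) rose by less, and Myh9 (-0.25) and Myo16 (-0.33) fell.

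Of 46 genes of cyclic AMP signalling (cyclases, phosphodiesterases and protein kinase A subunits) 2 rose and 2 fell by the study's rule, with a median log2 fold change of 0.02, and the 2 that rose had an adjusted p under 0.05. The phosphodiesterase genes Pde11a (-0.68, adjusted p = 0.0772) and Pde6g (-0.51, adjusted p = 0.168) fell by the unadjusted rule. Rapgef4 (Epac2), an exchange factor that binds cyclic AMP, rose from 312, 299 and 270 CPM to 387, 424 and 391 CPM (log2 fold change 0.45, SE 0.06, adjusted p = 0.00482). The calcium-sensitive cyclase gene Adcy1 rose from 216, 203 and 197 CPM to 265, 287 and 294 CPM (0.46, SE 0.10, adjusted p = 0.0245). Rapgef4 and Adcy1 lacked overlap between the groups.

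Growth factors and their receptors were called in both directions, 3 of 34 each. Acvr1c, a receptor of the activin family, rose from 31.4, 35.4 and 30.5 CPM to 49.6, 59.3 and 49.98 CPM (log2 fold change 0.71, SE 0.11, adjusted p = 0.00585), and Fgf10 fell (-0.55, adjusted p = 0.036). Bdnf, which is anterogradely supplied by cortical neurons and little transcribed in the striatum, had 0.530, 0.589 and 0.828 CPM in NSM and 1.11, 2.64 and 4.298 CPM in SM (1.90, SE 0.86, adjusted p = 0.22). Its stressed libraries again had the order of the cortical markers, but NSM1 lay below NSM2, unlike in the summed cortical markers. Igfbp6 (0.47, adjusted p = 0.138) rose and Ret (-0.63, adjusted p = 0.206), the receptor of GDNF family ligands, fell by the unadjusted rule. Vgf, a secreted peptide precursor, fell by the unadjusted rule (-0.56, adjusted p = 0.112) with 107 CPM in NSM1 and 110 CPM in SM1.

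In the retinoic acid pathway the synthetic enzyme gene Aldh1a1 rose from 6.74, 7.28 and 5.80 CPM to 13.5, 12.3 and 11.0 CPM (log2 fold change 0.89, SE 0.12, adjusted p = 0.00372) and the retinol carrier Rbp4 from 6.85, 5.77 and 5.98 CPM to 8.61, 9.505 and 9.10 CPM (0.55, SE 0.12, adjusted p = 0.0269). The degrading enzyme gene Cyp26b1 (-0.94, adjusted p = 0.125) and the retinol receptor gene Stra6 (-0.38, adjusted p = 0.214) fell by the unadjusted rule, and the other 13 tested members passed no threshold.

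Of 42 collagen genes 8 fell and none rose, 1 of them, Col1a2, at an adjusted p under 0.05 (-0.48, adjusted p = 0.0365). The number of collagens that fell depended on the libraries, ranging from 2 without NSM3 or without SM2 to 14 without NSM1 or without SM3. NSM3 and SM3 held the highest levels of their groups for several, such as Col6a1 with 219, 228 and 304 CPM in NSM and 165, 155 and 243 CPM in SM. Of 35 other matrix genes 4 rose and 3 fell, among them Thbs1 (-0.58, adjusted p = 0.0481), a secreted protein that astrocytes use to promote synapses, and Reln (0.46, adjusted p = 0.123), which guides neuronal migration and synaptic plasticity.

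Immune signalling gave calls by the unadjusted rule only, by which 6.44% of all tested genes were regulated. In cytokines and chemokines 3 of 30 fell and 1 rose, in the interferon response and MHC class I list Tap1 fell (-0.49, adjusted p = 0.0772) and Nlrc5 rose, and none of these had an adjusted p under 0.05 by limma, edgeR or DESeq2, with 6 cytokine and 4 interferon genes at an unadjusted limma p under 0.05. Wnt ligands, frizzleds and inhibitors gave 4 rises and 2 falls of 32, with none at the adjusted p by limma or edgeR, 1 by DESeq2, and 8 at an unadjusted limma p under 0.05. In the list of DNA methylation genes only Gadd45g, a stress-inducible factor, passed a threshold, falling from 5.65, 7.93 and 9.78 CPM to 4.68, 3.78 and 4.36 CPM (log2 fold change -0.83, SE 0.23, adjusted p = 0.0683).

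All 12 tested protein genes of the mitochondrial genome (9 with quantile normalization) had higher levels after SCVS, with log2 fold changes between 0.28 and 0.37 and a median of 0.33. None reached 1.3-fold, and 9 had an adjusted p under 0.05. mt-Nd6, a subunit of complex I, had 1439, 1394 and 1301 CPM in NSM and 1899, 1801 and 1609 CPM in SM (0.36, SE 0.07, adjusted p = 0.0195), and mt-Nd5 had 6031, 5699 and 5307 CPM against 7673, 7552 and 6617 CPM (0.36, SE 0.07, adjusted p = 0.0183). The direction was tied to the scaling, since the median of the mitochondrially encoded proteins was 0.01 with quantile normalization, where 1 had an adjusted p under 0.05. Without NSM2, NSM3, SM1 or SM2 none had an adjusted p under 0.05, but the median stayed between 0.27 and 0.36 in those 4 fits.

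Of 76 nuclear subunits of oxidative phosphorylation 61 had a log2 fold change above 0, with a median of 0.10, and 1, Ndufb9, had an adjusted p under 0.05 (0.24, adjusted p = 0.0282). Housekeeping lists had medians of 0.09 for 80 cytosolic ribosomal proteins, 0.01 for 72 mitochondrial ribosomal proteins, 0.07 for 38 proteasome subunits, 0.03 for 50 translation initiation factors, -0.06 for 51 splicing factors, 0.08 for 16 glycolysis genes and 0.08 for 22 genes of cholesterol synthesis. Members of these lists that passed a threshold included Psmb11, a proteasome subunit, which fell by the unadjusted rule (-0.43, adjusted p = 0.186). Of 51 splicing factors 3 fell at the adjusted p and of 50 translation initiation factors 2, and none rose, namely the splicing factors Srsf7 (-0.29), Srsf10 (-0.23) and Hnrnph1 (-0.26) and the translation factors Eif2c2 (-0.34) and Eif2ak4 (-0.27).

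Among genes whose transcripts mostly lack a poly(A) tail, 6 of 18 replication-dependent histone genes fell and none rose (median -0.39), 1 of them, Hist1h2be, at an adjusted p under 0.05 (-0.43, adjusted p = 0.0417), and 25 of 159 small nucleolar, nuclear and microRNA genes fell and 2 rose (median -0.27). Most of these had few reads, and the only small RNA gene with an adjusted p under 0.05, Mir1943, had a mean of 8 reads. Among all tested genes below a mean of 50 reads 7.9% fell and 4.3% rose by the study's rule, with a median of -0.09. The filter counts raw reads and any group can meet it, so a gene with few reads can pass through the group where it is higher. The part of the filter in these falls was not tested. Of 347 C2H2 zinc finger genes 10 fell and none rose by the study's rule, and at the adjusted p 7 were lower and 3 higher. Zfp92, on chromosome X, fell from 9.25, 8.88 and 10.4 CPM to 6.69, 6.51 and 6.40 CPM (log2 fold change -0.54, SE 0.08, adjusted p = 0.00737), and Zfp46 (0.34, adjusted p = 0.00372), Zfp238 (0.37, adjusted p = 0.0101) and Zfp365 (0.33, adjusted p = 0.0181) rose. The number of fallen histone genes was between 0, with SM1 as the only stressed library, and 8, without NSM1, across the fits, and the number of fallen small nucleolar, nuclear and microRNA genes lay between 9 and 38.

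**Figure D4:**
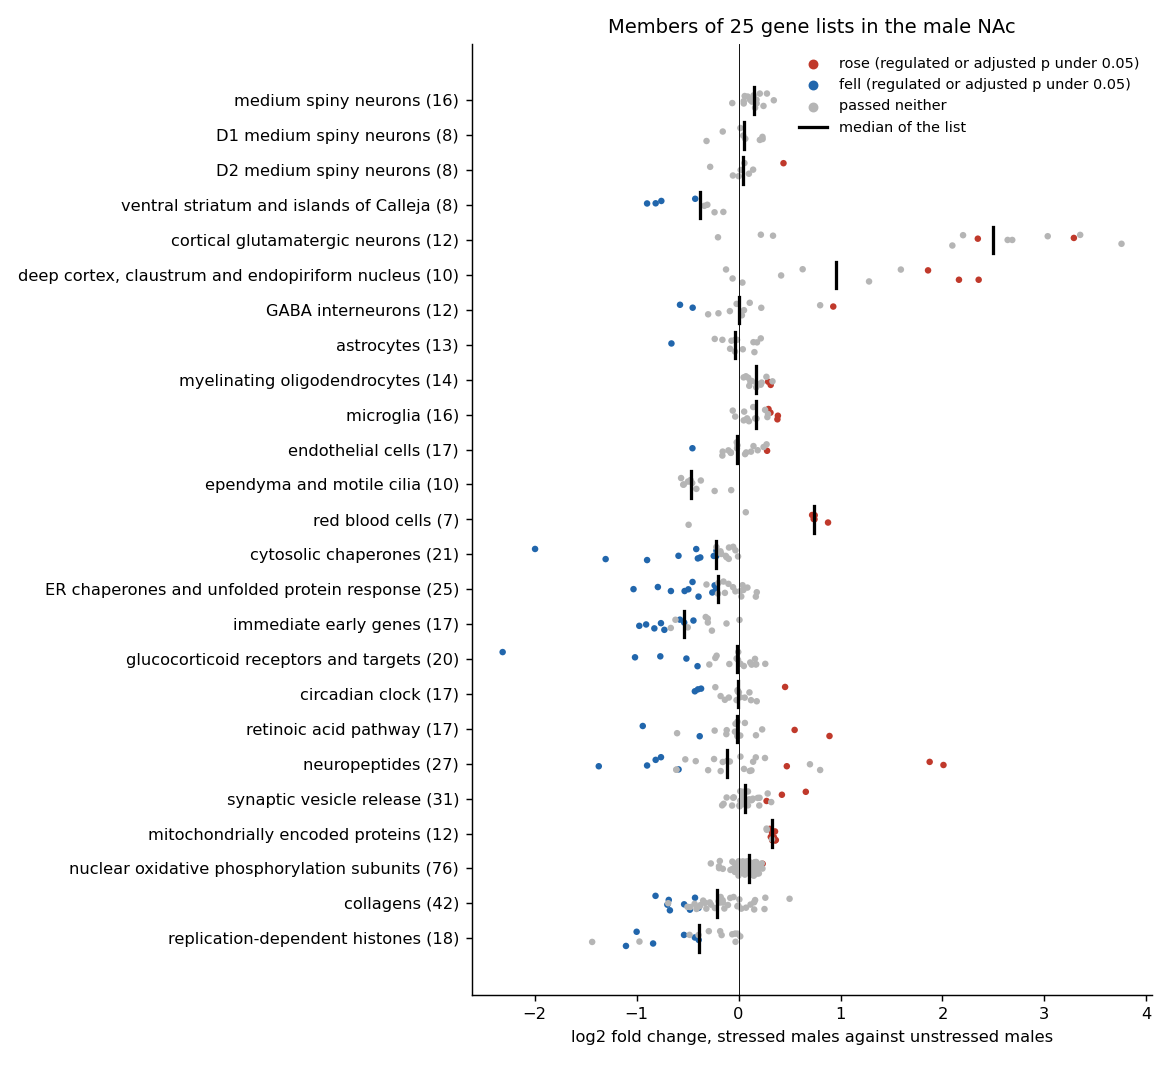
Each row is 1 of 25 gene lists with the number of tested members in brackets, each point is a gene at its log2 fold change of stressed against unstressed males, and the black bar is the list's median. Cytosolic chaperones, immediate early genes, histones and markers of the ventral striatum lie almost wholly at or below 0, red blood cell genes other than Epb4.2 and mitochondrially encoded genes above 0 (the latter close to 0 with quantile normalization), and cortical markers reach 3.76 with few calls.

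The largest rises that passed the adjusted p, with at least 50 mean reads and no overlap between the groups, included neuronal and secreted proteins. Fam198b, a Golgi protein, had 5.21, 4.21 and 4.42 CPM in NSM and 9.09, 12.9 and 9.37 CPM in SM (ENSMUSG00000027955, chromosome 3, log2 fold change 1.17, SE 0.16, adjusted p = 0.00372). Coch, an extracellular matrix protein best known from the inner ear, rose from 10.6, 10.3 and 10.2 CPM to 19.5, 26.9 and 20.2 CPM (1.09, SE 0.21, adjusted p = 0.0177), and Clspn, a checkpoint protein of DNA replication, from 4.54, 4.04 and 3.47 CPM to 7.35, 9.93 and 7.78 CPM (1.05, SE 0.23, adjusted p = 0.0264). Cpne9 (1.14), Atp6ap1l (1.01), Micalcl (0.88), Dmkn (0.83) and Nrap (0.76) were further protein-coding genes of this group, beside Aldh1a1 and Alas2. A gene annotated as a microRNA of 71 bases, AC161763.1 on chromosome 7, had 49.6, 31.1 and 36.1 CPM in NSM and 80.8, 62.2 and 69.2 CPM in SM. Since the RNA sequenced was longer than 200 bp, these are not reads of a mature microRNA.

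The largest falls by the same rule, beside Hspa1b, Prok2, Sdf2l1 and Zbtb16, were those of Serpinb2 (log2 fold change -1.24, adjusted p = 0.0164), an inhibitor of plasminogen activators, Magel2 (-1.17, adjusted p = 0.0415), a ubiquitin ligase partner expressed in hypothalamus, Igsf1 (-1.09, adjusted p = 0.0497), a membrane glycoprotein of pituitary and hypothalamus, Banp (-1.06, adjusted p = 0.00174), Ysk4 (-1.02, adjusted p = 0.00373), a kinase, AW551984 (-0.998, adjusted p = 0.0319) and Dio3 (-0.98, adjusted p = 0.0243), the enzyme that inactivates thyroid hormone. Banp, a nuclear protein that binds CG-containing motifs (ENSMUSG00000025316, chromosome 8, 124473650 to 124553158), had 23.4, 26.3 and 27.1 CPM in NSM and 11.2, 11.504 and 14.2 CPM in SM. Dio3 had 5.82, 3.66 and 5.46 CPM against 2.82, 2.45 and 2.28 CPM, and AW551984 39.7, 26.7 and 41.5 CPM against 22.5, 17.3 and 14.5 CPM, with NSM2 the lowest unstressed library in both.

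Among genes with a mean of at least 100 CPM the smallest p values belonged mainly to falls. Beside Hspa5 and Pdia6, this group held Sgsm1, a regulator of Rab GTPases, from 166, 160 and 185 CPM to 120, 115 and 117 CPM (log2 fold change -0.54, SE 0.07, adjusted p = 0.00372), Zdbf2 from 131, 139 and 136 CPM to 96.3, 92.0 and 89.7 CPM (-0.55, SE 0.07, adjusted p = 0.00372), Nnat from 258, 301 and 295 CPM to 216, 194 and 201 CPM (-0.48, SE 0.07, adjusted p = 0.00579) and Peg3, a zinc finger protein, from 596, 570 and 614 CPM to 450, 442 and 448 CPM (-0.41, SE 0.06, adjusted p = 0.00612). Pnmal2 (-0.38), the histone methyltransferase gene Mll1 (-0.34), Phip (-0.33) and the nuclear exporter gene Xpo1 (-0.27) also fell. The rises in this group were those of Lynx1 and Rapgef4.

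Whether the effect of SCVS differed between the sexes was tested as the sex-by-stress interaction over all tested genes. It met the p and fold rule for 4.42% of genes and an adjusted p under 0.05 for 0.0269%, which is 5 genes. Of the 1198 genes regulated in males 526 had an unadjusted p under 0.05 for the difference. They were picked by their male effect, which is itself part of the difference. A high share among them therefore follows from the choice and tests nothing. All 5 genes with an adjusted p under 0.05 for the difference fell in males. Chordc1 had a log2 fold change of -0.59 in males and -0.0027 in females (difference -0.59, SE 0.08, adjusted p = 0.0328), and Banp -1.06 and 0.04 (difference -1.10, SE 0.16, adjusted p = 0.0328).

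Slc5a3, a transporter of myo-inositol on chromosome 16 (ENSMUSG00000089774), had 59.5, 66.4 and 63.3 CPM in NSM and 43.8, 42.1 and 38.4 CPM in SM, a log2 fold change of -0.61 against 0.14 in females (difference -0.74, SE 0.11, adjusted p = 0.0328). Tsc22d3 had a log2 fold change of -0.40 in males and 0.31 in females (difference -0.71, SE 0.10, adjusted p = 0.0328), and Cables1, which binds cyclin-dependent kinases, -0.45 and 0.12 (difference -0.57, SE 0.09, adjusted p = 0.0438). For Zdbf2, Hectd2 and Fam198b, next in order among regulated genes with at least 50 reads, the adjusted p of the difference was 0.105. DESeq2 gave an adjusted p under 0.05 to 135 genes. With the cortical markers as a covariate the differences were -0.63 for Chordc1, -1.07 for Banp, -0.72 for Tsc22d3, -0.51 for Slc5a3 and -0.49 for Cables1, with an adjusted p of 0.605 for the former 3, 0.814 for Slc5a3 and 0.82 for Cables1.

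**Figure D5:**
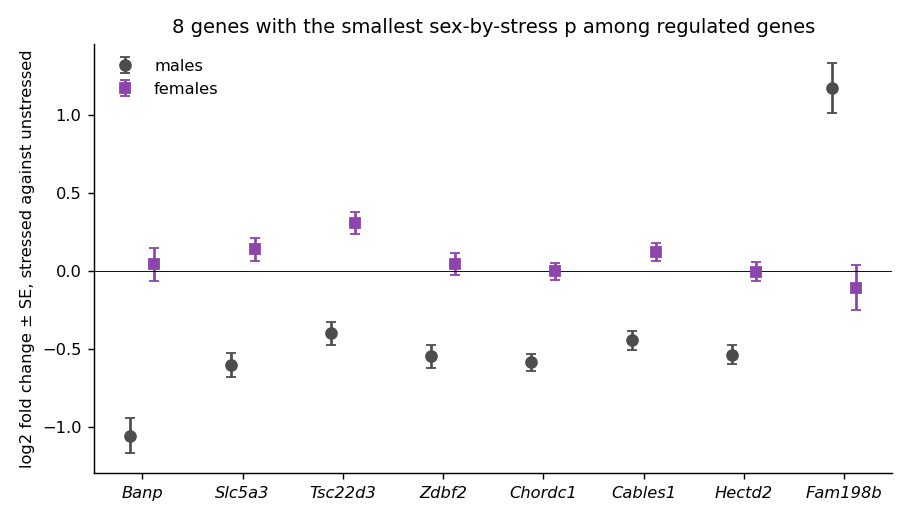
Points are log2 fold changes of stressed against unstressed mice with their SE (limma, 3 libraries per group) in males (grey circles) and females (purple squares) for the 8 regulated genes with the smallest p of the sex-by-stress difference. In 7 genes the male value lies between -1.06 and -0.40 and the female value between -0.01 and 0.31, and for Fam198b the male value is 1.17 and the female value -0.11.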

How the data were processed

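Counts of read pairs per gene for 12 messenger RNA libraries (3 each of NSM, SM, NSF and SF) were used as the authors deposited them. According to the methods of the study and the labels, the authors made them from RNA longer than 200 bp with a RIN above 8.8, with TruSeq v2 libraries sequenced as 50-bp pairs, aligned by TopHat2 to Ensembl NCBIM37 version 67 and counted by HTSeq. Versions of both tools and the strand setting are not given in the sources used here, so that genes overlapping others, and near copies, may share reads.

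From 38293 genes those above 5 reads in 80% of a group's libraries were kept, counts were scaled by TMM (edgeR 4.0.16), and SM was compared with NSM by voom and limma 3.58.1 over all 12 libraries (8 residual degrees of freedom, R 4.3.3). The filter, voom-limma and the rule for regulated genes follow the study's methods, which do not state the scaling. Some genes are not reported here. The Benjamini-Hochberg adjustment ran over the 18593 tested genes. The script was tested on simulated counts. Exact permutation of 3 against 3 libraries cannot reach 0.05, so p values come from this model alone, and they measure the spread between pools. The gene lists were chosen with earlier results of these data known, and the imprinted list after the values were seen. Lists are described by counts and medians. Genes named were, by rule, the 12 largest rises and 12 largest falls with at least 50 reads, the 12 smallest p values above 100 CPM, up to 4 regulated members and the first member of each list, and the 8 smallest sex-by-stress p values. Further list members are named with their values and were chosen after these were seen. Alternatives were edgeR, DESeq2 1.42.0, other scalings and filters, library weights, a replicate block, the cortical marker level as a covariate, and leaving out libraries.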

Additional observations from a re-analysis of the deposited data

Results flagged for a closer look

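For 5 genes the response to SCVS differed between males and females at an adjusted p under 0.05 (limma, sex-by-stress term, 3 pools a group). The male minus the female log2 fold change was -1.10 (SE 0.16) for Banp, -0.74 (SE 0.11) for Slc5a3, -0.71 (SE 0.10) for Tsc22d3, -0.59 (SE 0.08) for Chordc1 and -0.57 (SE 0.09) for Cables1. Each of these genes was lower in all 3 SM than in all 3 NSM libraries. Over 19 alternatives the difference stayed negative, between -1.22 and -1.04 for Banp, -0.79 and -0.51 for Slc5a3, -0.76 and -0.60 for Tsc22d3, -0.63 and -0.54 for Chordc1 and -0.63 and -0.49 for Cables1. The adjusted p was under 0.05 in 10, 12, 11, 12 and 5 of them, respectively. Stressed males carried more cortical marker RNA than unstressed males and stressed females less than unstressed females (list medians 2.49 and -0.58), and with these markers as a covariate the differences were -1.07 for Banp, -0.51 for Slc5a3, -0.72 for Tsc22d3, -0.63 for Chordc1 and -0.49 for Cables1, each with an adjusted p above 0.6.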

How the results depend on the processing

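Of 618 male genes with an adjusted p under 0.05, the number became 1180 with DESeq2, 380 with a filter of 1 read in any library, 354 with the 6 male libraries only, 1698 with library quality weights and 45 with the cortical markers as a covariate. With libraries 1 and 2 of NSM and SM and all female libraries it was 178, and leaving out each male replicate in turn gave 79 (without SM2) to 972 (without SM3). The subset of libraries 1 and 2 and the one with SM1 as the only stressed male library were chosen after the data were seen. The number of genes regulated by stress in males was 256 when the adjusted p and the fold were both asked for (109 up, 147 down) and 3992 with no fold threshold (1847 genes upregulated by stress in males, 2145 genes downregulated by stress in males), and 749 were upregulated with the filter of 1 read. Leaving out each replicate gave 831 to 1615 regulated genes, with 451 (without NSM3) to 1153 (without SM3) downwards. The share of downward calls moved from 63.4% to 76.2% with library size scaling and to 52.3% with quantile normalization, and was 48.25% without SM1 (548 up, 511 down) and 54.3% without NSM3. The 5 genes of the sex-by-stress difference became 135 with DESeq2, 15 with quality weights, 0 with the covariate, 0 with SM1 alone, 0 with libraries 1 and 2, and 0 (without NSM2, NSM3, SM2 or SM3) to 8 (without SM1) on leaving out each replicate. Whether replicate numbers paired the samples was not settled. The deviations of NSM3 and SM3 from their group means correlated at 0.599 and those of the other numbers at 0.0431 and 0.0436. NSM1 and NSM2 each correlated better with a stressed library of another number. Deviations from a mean of 3 libraries are bound to each other, so that these correlations cannot exclude pairing. With the replicate block 1727 genes had an adjusted p under 0.05, 1310 were regulated, and 63 differed between the sexes.

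The log2 fold changes of 204 named genes were recomputed in up to 20 alternatives, 4073 values in all. In 3397 the direction and the side of the threshold were kept, in 632 a call was lost, mostly where libraries were left out, in 22 a call was gained, and in 22 values of 13 genes the sign changed. With the cortical covariate Bdnf had -0.14, Cck -0.28, Nr4a2 -0.16 and Atf4 -0.15, and with SM1 as the only stressed library Adra2b had 0.24, Pdyn 0.0474, Htr4 0.0306, Hsp90aa1 0.0267 and Gbx2 0.001455. With library size scaling Nr3c1 had -0.0316, Canx -0.0236 and Atf4 -0.0112, with quantile normalization Canx had -0.0173 and mt-Nd5 -0.0102, with quality weights Atf4 had -0.0226 and Nr3c1 -0.000462, and with libraries 1 and 2 only Atf4 had -0.0357 and Fkbp5 -0.00994. Leaving out each replicate gave -0.0173 to 0.102 for Canx, -0.00111 to 0.1002 for Fkbp5 and -0.0106 to 0.06997 for Nr3c1. The causes were not tested. Of 85 named genes that passed both calling rules, 17 no longer met the p and fold rule when 1 library was left out, with sizes of the log2 fold change between 0.29 and 0.377 and no change of sign: Bag3, Arntl, Kcnn2, Pdia6 and Tsc22d3 without NSM2, Hsf1, Npy1r, Oprm1, P2ry12, Peg3, Pnmal2 and Scn4b without NSM3, Arntl and Pdia6 without NSM1, Arntl, Kcnn2 and P2ry12 without SM1, Col1a2, Creld2, Hsf1, Kcnn2, Npy1r, P2ry12, Pnmal2, Sv2b and Tsc22d3 without SM2, and Nfil3, Pdia6 and Pnmal2 without SM3, besides Hist1h2be without NSM2 or SM3.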

Other observations

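Imprinted genes, which are transcribed from the maternal or the paternal copy only, recurred among the falls, and a list of 43 of them was drawn up after those values had been seen, so that its counts describe and test nothing. Of 38 tested members 10 fell by the study's rule and none rose, 6 of them at an adjusted p under 0.05 (Zdbf2, Nnat, Peg3, Dio3, Peg10 and Magel2), 18 had all stressed libraries below all unstressed ones and 1 had them above, and the median log2 fold change was -0.20. In females the median was 0.05. Besides the genes already given, Asb4 had 2.68, 1.85 and 2.80 CPM in NSM and 1.01, 0.914 and 1.57 CPM in SM (-1.08, adjusted p = 0.0693), and the long noncoding RNA gene Meg3 had a log2 fold change of -0.49 (adjusted p = 0.134). Others lay on the opposite side, such as Snrpn with 354, 354 and 334 CPM in NSM and 403, 386 and 376 CPM in SM (0.16, adjusted p = 0.0999). With SM1 as the only stressed library 7 imprinted genes fell, with the cortical covariate 6 fell and 1 rose, and without NSM3 6 fell.

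At the adjusted p the direction of calls varied with the length of the gene. Among protein-coding genes with an adjusted p under 0.05, those with the shortest summed exons (at most 2000 bases, 3132 genes) were higher in stressed males in 50 cases and lower in 22, whereas those with the longest (6101 bases or more, 3130 genes) were higher in 59 and lower in 145. The 3 classes of similar size in between had 41 higher and 40 lower, 40 and 48, and 59 and 71. By the study's rule falls outnumbered rises in every class, with 97 up and 131 down in the shortest and 45 up and 84 down in the longest. By chromosome, 48 of 687 tested genes on chromosome X were regulated downwards (6.99%) and 11 upwards, and on chromosome 15 there were 17 and 21. Of 25 tested genes of the mitochondrial genome 10 had an adjusted p under 0.05, all of them higher.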
